A study of Rattus norvegicus with 15 samples.

Results

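Nqo1 and Ncam2 are markers of opposite zones of the olfactory epithelium, the odour-sensing lining of the nasal cavity. Nqo1 encodes a quinone oxidoreductase that marks sensory neurons of the dorsal zone, and Ncam2 (also called OCAM) encodes a homophilic cell adhesion molecule that marks neurons of the remaining, more ventral zones. A neuron chooses 1 odorant receptor, largely from the repertoire of its own zone. The class I receptors, which lie beside the beta-globin genes, and most trace amine-associated receptors (Taar genes) are known for the dorsal zone, as is Omacs (now Acsm4), an acyl-CoA synthetase. The balance of Nqo1 and Ncam2 can therefore serve as a gauge of how much of each zone an RNA sample held.

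The members were all probes, other than controls, whose gene name on the array was Nqo1 or Ncam2. There were 4 of these among 41012 probes, 1 for Nqo1 and 3 for Ncam2. The animals were untreated Brown Norway rats aged 6 weeks, 4 males (rats 1, 2, 5 and 6) and 4 females (rats 3, 4, 7 and 8), and no group carried an allele or agent of its own. Each nostril was labelled A or B and hybridized to its own array, which gave 15 arrays, 7 of males and 8 of females, since rat 1 was represented by nostril A alone. The labels do not tell which nostril is left or right. Whole epithelium was dissected, so more cells of a zone and more RNA per cell cannot be told apart.

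The probes show which part of each gene was read. The 60 bases of the Nqo1 probe (rat build rn3, chr19:37261860-37261919, minus strand) and the first 30 bases of each Ncam2 probe were:
Nqo1: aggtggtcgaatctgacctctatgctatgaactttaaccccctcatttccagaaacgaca
Ncam2, reference probe: tacctttcgcagatattagaaattgaaaaa
Ncam2, GPI isoform probe: atcagatacatatatctcttgttctgcttt
Ncam2, dim probe: caagaatgagggtgttttcaagtacttcaa
The reference probe (chr11:20910436-20910495, plus strand) and the dim probe (chr11:20910789-20910848) both carry the RefSeq transcript NM_203409 and start 353 bases apart. The GPI isoform probe (chr11:20861743-20861802) was designed on an mRNA described as the glycosylphosphatidylinositol-linked form of the protein, and starts 48.7 kb away. Whether these bases are exonic coding sequence or untranslated sequence is not given in the array annotation. Over their 60 bases, the GPI isoform and dim probes had no reading frame free of stop codons, so neither can be coding throughout. The Nqo1 and reference probes each had 1 such frame. Of the 4 probes, 3 had a transcript that the RefSeq gene table (assembly GRCr8) lists under the same symbol, and the GPI mRNA had no entry there.

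Nqo1 and both brighter Ncam2 probes were detected on 15 of 15 arrays, with 0 saturated spots. The dim Ncam2 probe was above background on 3 arrays, both nostrils of female 4 and nostril B of female 8. It was therefore left out of the tests. Values below are log2 of the signal over the median signal of its array. Levels of different probes are not compared, since probes differ in hybridization.

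Nqo1 was 3.93 in male 1A, 3.23 and 3.47 in male 2A and 2B, 4.08 and 4.38 in female 3A and 3B, and 3.53 and 4.19 in female 4A and 4B. It was 3.65 and 3.36 in male 5A and 5B, 4.29 and 3.91 in male 6A and 6B, 3.54 and 3.58 in female 7A and 7B, and 3.11 and 3.12 in female 8A and 8B. Nqo1 was thus lowest in both nostrils of female 8 and highest in nostril B of female 3, a 2.41-fold range.

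The Ncam2 reference probe stayed between 2.66 (male 1A) and 3.21 (female 3A), a 1.47-fold range. Its values were 2.88 and 2.69 in male 2, 3.21 and 2.97 in female 3, 3.19 and 2.79 in female 4, 2.95 and 2.97 in male 5, 2.67 and 2.98 in male 6, 2.92 and 2.87 in female 7, and 2.79 and 3.00 in female 8, nostril A first. The nostrils of female 4 were 0.40 apart, against 0.55 between the most distant arrays.

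The GPI isoform probe ran from 0.26 (male 6A) to 1.29 (male 2A), a 2.04-fold range. It gave 1.02 in male 1A, then 1.29 and 1.17 in male 2, 0.76 and 1.17 in female 3, 1.08 and 0.80 in female 4, 0.70 and 0.66 in male 5, 0.26 and 0.53 in male 6, 0.96 and 0.82 in female 7, and 0.69 and 0.61 in female 8. Both nostrils of male 6 lay below every other array, and the 2 Ncam2 probes did not order the rats alike. Over the 8 rat means their Pearson r was -0.12 (exact permutation p = 0.774) and Spearman's rho -0.21 (exact p = 0.619).

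**Figure D1:**
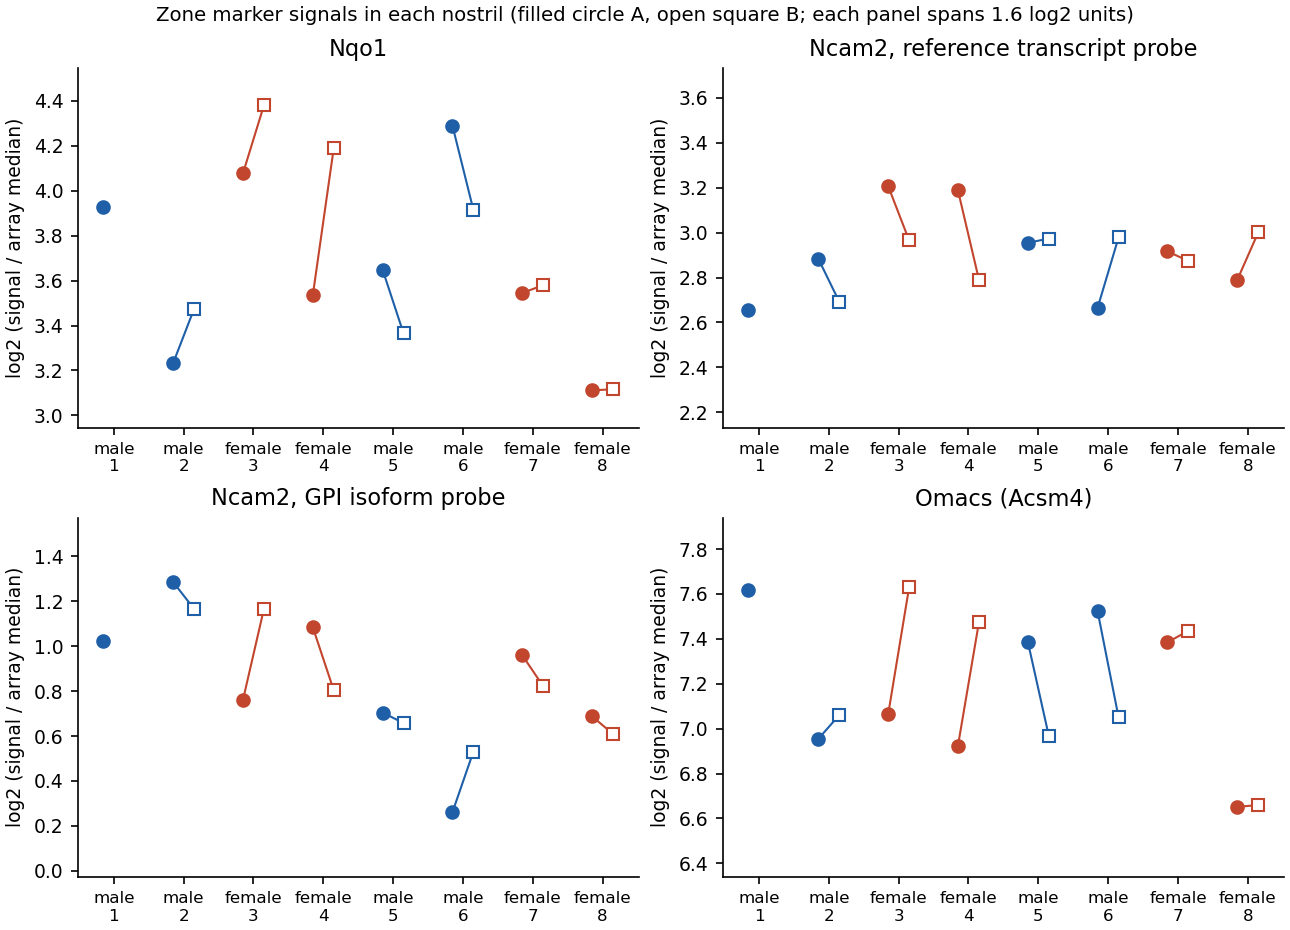
Log2 signal over the array median (y axis) of Nqo1, the 2 brighter Ncam2 probes and Omacs in each rat (x axis). Filled circles are nostril A, open squares nostril B, blue males and red females, and lines join the nostrils of a rat. Nqo1 and Omacs slope the same way in all 7 rats, and Nqo1 spans 3.11 to 4.38.

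The nostrils of a rat differed in Nqo1 by 0.271 on average (absolute log2 difference, 7 rats). Among the 2890 probes with a mean level within 0.5 of that of Nqo1, 92.5% differed less. For the reference probe the mean absolute difference was 0.202, above 84.4% of 3015 probes of like level, and for the GPI isoform probe it was 0.191, above 67.7% of 3268. The median over all 27574 tested probes was 0.132.

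The sign of these differences did not follow the nostril label. Nqo1 was higher in nostril A of 2 rats and in nostril B of 5, with a mean A minus B difference of -0.08 ± 0.11 (SE, n = 7 rats, limma adjusted p = 0.885). The reference probe gave 0.05 ± 0.08 (adjusted p = 0.918) and the GPI isoform probe 0.00 ± 0.08 (adjusted p = 0.998). No probe of the array passed limma's 1% threshold between nostrils (0 of 27574, 0.0%), and 1623 had an unadjusted p under 0.05.

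Males and females overlapped for both genes. Nqo1 was 3.72 ± 0.35 in males and 3.69 ± 0.47 in females (SD, n = 4 rats each), a female minus male difference of -0.03 ± 0.24 (SE, limma adjusted p = 0.962). The reference probe was 2.81 ± 0.13 in males and 2.97 ± 0.09 in females, a difference of 0.16 ± 0.08 (adjusted p = 0.355). The GPI isoform probe was 0.83 ± 0.37 in males and 0.86 ± 0.15 in females (adjusted p = 0.946). Of all tested probes, 12 passed 1% between the sexes (0.0435%), and no member was among them. With the 15 arrays in place of rat means the differences were -0.0017 for Nqo1, 0.14 for the reference probe and 0.058 for the GPI isoform probe, and with slide added as a block they were 0.53, 0.46 and -0.40. The blocked values rest on slide 1, which held 3 male arrays and 1 female array, so they are given with no test.

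Differences among rats of the same sex were set against those between nostrils. Limma's F was 8.13 for Nqo1 (adjusted p = 0.0251), 6.56 for the GPI isoform probe (adjusted p = 0.0373) and 0.89 for the reference probe (adjusted p = 0.612). The order of Nqo1 and the GPI isoform probe turned with 75th percentile scaling (6.99 and 8.08) and with quantile normalization (7.20 and 7.50). With a rat left out F ran from 4.88 to 17.4 for Nqo1 and from 3.19 to 11.2 for the GPI isoform probe. None passed the 1% threshold, which 768 of 27574 probes (2.79%) passed. With slide as a block the adjusted p was 0.209 for Nqo1 and 0.316 for the GPI isoform probe. Each slide held at most 3 rats, so most differences among rats and slides cannot be told apart.

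The log ratio of Nqo1 to the mean of both brighter Ncam2 probes put the zone markers on 1 scale. Only its change between arrays can be read. It was 2.09 in male 1A, 1.15 and 1.54 in male 2, 2.09 and 2.31 in female 3, 1.40 and 2.39 in female 4, 1.82 and 1.55 in male 5, 2.83 and 2.16 in male 6, 1.61 and 1.73 in female 7, and 1.37 and 1.31 in female 8, nostril A first. The extremes, male 2A and male 6A, were 3.20-fold apart. The nostrils of female 4 were 1.99-fold apart and those of female 8 were 1.04-fold apart. The log ratio followed Nqo1 closely, with r = 0.94 over the arrays and 0.97 over the nostril differences. For the reference probe these were -0.27 and -0.91, and for the GPI isoform probe -0.43 and -0.54. The ratio is built from these probes, so such values are no test. Relations with the ratio below are therefore close to relations with Nqo1 alone.

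By rat mean the order was male 6 (2.49), female 3 (2.20), male 1 (2.09), female 4 (1.90), male 5 (1.68), female 7 (1.67), male 2 (1.35) and female 8 (1.34). The largest gap between neighbours in that order was 0.32, under the within-rat SD of 0.352, so no neighbours were separated beyond the spread of nostrils.

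**Figure D2:**
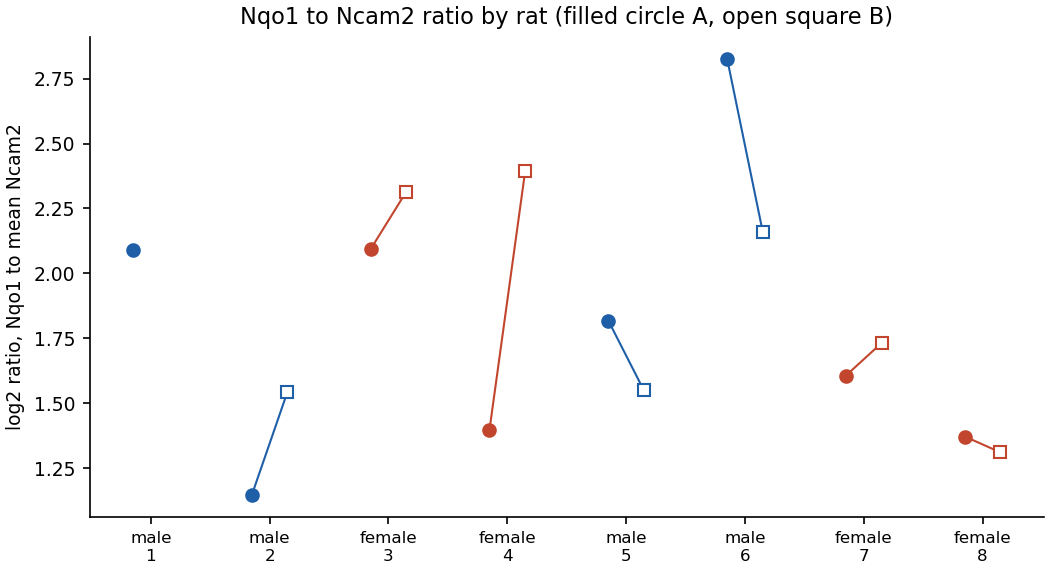
Log2 ratio of Nqo1 to the mean of the 2 brighter Ncam2 probes (y axis) by rat (x axis). Filled circles are nostril A and open squares nostril B. The ratio runs from 1.15 to 2.83, and males (blue) and females (red) overlap.

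Nostrils of 1 rat differed in the log ratio by 0.391 on average, against 0.596 averaged over all ways of pairing the arrays within a sex (exact permutation test, one-sided p = 0.0349). The observed value was 0.21 smaller. With the ratio to the GPI isoform probe alone it was 0.31 smaller (exact p = 0.021), and with the reference probe alone 0.09 smaller (exact p = 0.178). Leaving out male 2, male 5, male 6 or female 8 also took p above 0.05, up to 0.156. In 6 of the 7 rats both nostrils shared a slide, so rat and slide cannot be fully told apart in this test. On the same slide, arrays of 1 rat differed by 0.419 on average (6 pairs). Those of different rats of 1 sex differed by 0.586 (12 pairs, male 1A included), and this contrast was not tested. Between nostrils the mean A minus B difference of the log ratio was -0.11 ± 0.53 (SD, n = 7 rats, exact permutation p = 0.609). Between sexes it was 1.90 ± 0.50 in males and 1.78 ± 0.36 in females (SD, n = 4 rats each, exact permutation p = 0.686, smallest possible 0.0286).

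Within rats, the 2 zone markers moved against each other for 1 of the Ncam2 probes. The A minus B differences of Nqo1 were -0.24, -0.30, -0.66, 0.28, 0.38, -0.04 and 0.00 in rats 2 to 8. Those of the reference probe were 0.19, 0.24, 0.40, -0.02, -0.31, 0.04 and -0.21. The sign was opposite in 6 of 7 rats and the same in female 8, where Nqo1 hardly differed. Pearson's r was -0.89 (exact permutation p = 0.00952, adjusted p = 0.0413 over 13 correlations) and Spearman's rho -0.96 (exact p = 0.00278, adjusted p = 0.0181). Without female 4 and male 6, the 2 rats farthest from the median of Nqo1, r was -0.66. The relation set in advance was that with the mean of both Ncam2 probes. This correlation was among 13 added after the data were seen, as were those below with Nqo1 or 1 Ncam2 probe alone. None of the 13 was run under other scalings or background correction.

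The GPI isoform probe gave an r with Nqo1 of -0.35 (exact permutation p = 0.427) and a rho of -0.43 (exact p = 0.354). Without female 4 and male 6 that r turned to 0.48. In female 3 the GPI isoform probe was lower in nostril A than in B, as was Nqo1, with a difference of -0.41. The mean of both Ncam2 probes gave r = -0.78 (exact p = 0.0387, adjusted p = 0.0645 over 5 correlations) and rho = -0.61 (exact p = 0.167). Without female 4 and male 6 this r was -0.05, so the relation with the mean rested on those rats. With normexp background correction it turned to 0.35 (adjusted exact p = 0.525), and to -0.59 with that correction and without female 4. Over the 8 rat means, Nqo1 and Ncam2 had r = 0.00 (exact p = 0.992) and rho = 0.19 (exact p = 0.665).

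**Figure D3:**
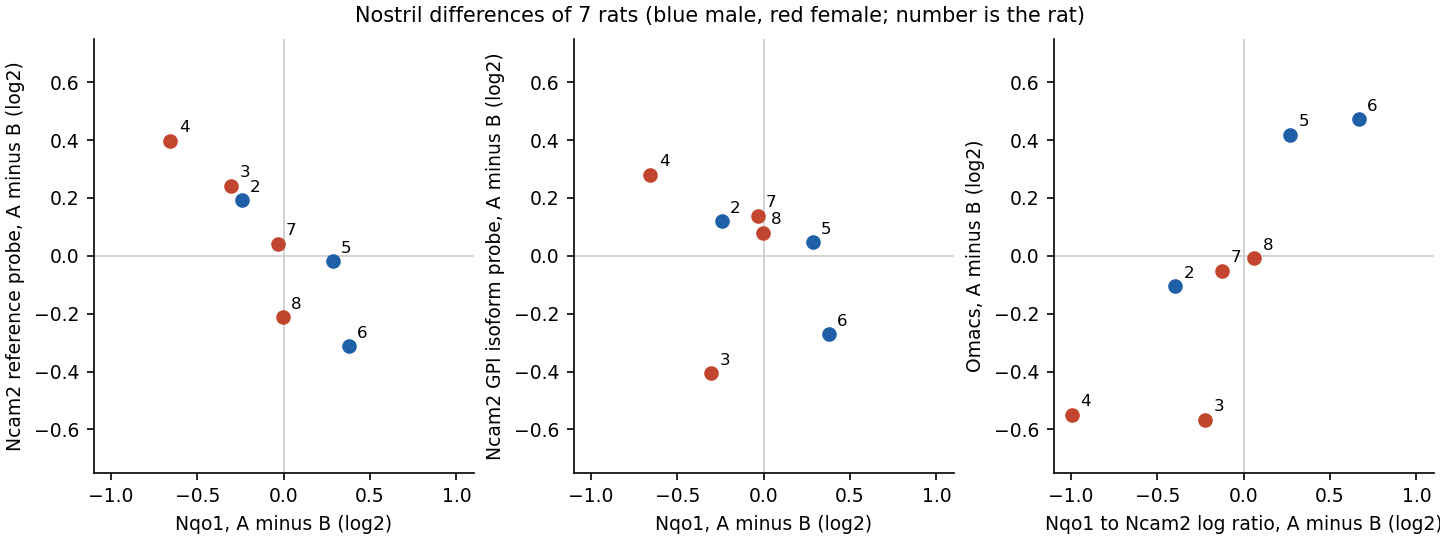
A minus B differences on the log2 scale in 7 rats: Nqo1 against each Ncam2 probe, and the log ratio against Omacs. Each point is a rat, numbered, blue for males and red for females. The reference probe falls along a descending line (r = -0.89), the GPI isoform probe does not (r = -0.35), and Omacs rises with the ratio (r = 0.85).

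Omacs, whose transcript belongs to the dorsal zone, followed Nqo1 from nostril to nostril. Its A minus B differences were -0.11, -0.57, -0.55, 0.42, 0.47, -0.05 and -0.01 in rats 2 to 8, of the same sign as those of Nqo1 in 7 of 7 rats. With Nqo1 alone r was 0.94 (exact permutation p = 0.00179, adjusted p = 0.0232 over 13 correlations) and rho 0.96 (exact p = 0.00278). Without female 4 and male 6, r remained 0.92. With the log ratio r was 0.85 (exact p = 0.0117, adjusted p = 0.0491 over 5 correlations) and rho 0.89 (exact p = 0.0123, adjusted p = 0.0595), and without the same rats r was 0.72. This call was lost with normexp background correction (r = 0.39, adjusted exact p = 0.48) and with the ratio to the GPI isoform probe alone (r = 0.72, adjusted exact p = 0.186).

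Olfactory receptor probes within 3 Mb of the beta-globin probe Hbb were taken as the class I set, by position alone. Their receptor families were not checked, so the set may hold receptors of other classes. The set had 142 probes, of which 77 were detected on at least 11 arrays. The median signal of the 77 moved with the log ratio between nostrils, with r = 0.82 (exact permutation p = 0.0196, adjusted p = 0.0491) and rho = 0.86 (exact p = 0.0238, adjusted p = 0.0595). Without female 4 and male 6, r was 0.65. It was higher in nostril A of rats 5 and 6 by 0.20 and 0.18, and lower there in the other 5 rats, by up to 0.48 in female 4. With Nqo1 alone r was 0.88 (exact p = 0.00952, adjusted p = 0.0413 over 13 correlations) and with the Ncam2 reference probe alone -0.78 (exact p = 0.047, adjusted p = 0.0873). With the GPI isoform probe alone r was -0.17 (exact p = 0.693, adjusted p = 0.839). Without female 3 and male 6, the rats farthest from the median of that probe, it was -0.90. The relation with the log ratio lost its call with normexp background correction (r = 0.79, adjusted exact p = 0.102) and when the ratio was that of Nqo1 to the GPI isoform probe (r = 0.71, adjusted exact p = 0.186).

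The adjusted p of the Omacs and class I relations with the ratio was 0.0491 for all 7 rats. With 1 rat left out it ran from 0.00694 to 0.191 for Omacs and from 0.0243 to 0.191 for class I, and r from 0.78 to 0.96 and from 0.74 to 0.87. The nostrils of female 3 were hybridized on different slides. Without female 3, r with Omacs was 0.96.

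Single receptor probes are given as a description, over 7 differences that share rats and arrays. Of the 77 receptor probes, 58 had a positive r with the ratio, and the median r was 0.73. It was -0.11 over 657 other receptor probes. Over 25899 expressed probes that are neither receptors nor members and had a value on every array, it was -0.15. An r over 0.5 was found for 67.5% of the 77, 21.3% of the other receptors and 6.00% of the rest.

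**Figure D4:**
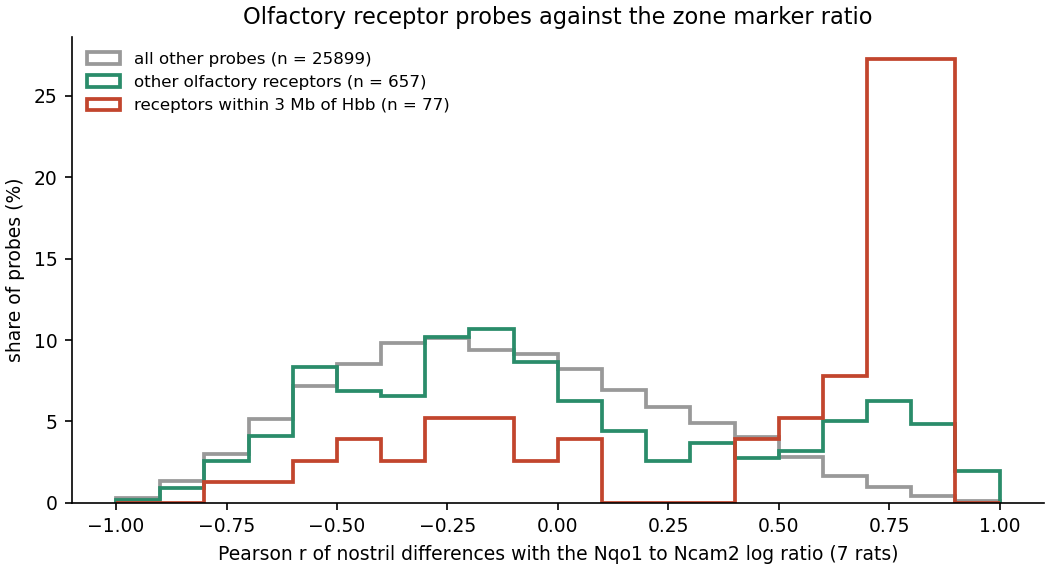
Share of probes (y axis, percent of each set) by Pearson r of their nostril differences with those of the log ratio (x axis, 7 rats). Receptors within 3 Mb of Hbb (red) pile up at high r, with a median of 0.73, whereas the other receptors (green) centre on -0.11 and all other probes (grey) on -0.15.

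Position divided the 77 further. Within 1.5 Mb of Hbb, 52 of 54 probes had a positive r and 50 exceeded 0.5, with a median of 0.77. Among the 21 probes lying 1.5 to 3 Mb beyond Hbb on the higher-coordinate side, 0 exceeded 0.5 and the median was -0.21. The 2 probes at the same distance on the lower-coordinate side both exceeded 0.5, with a median of 0.80. Farther out, 9 of 16 probes 3 to 6 Mb away on the higher side exceeded 0.5, with a median of 0.59, as did 3 of 3 on the lower side, with a median of 0.80. These are counts along 1 chromosome, and neighbouring receptor genes of like sequence can hybridize to the same probe. Receptor class was not checked in any of these groups.

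**Figure D5:**
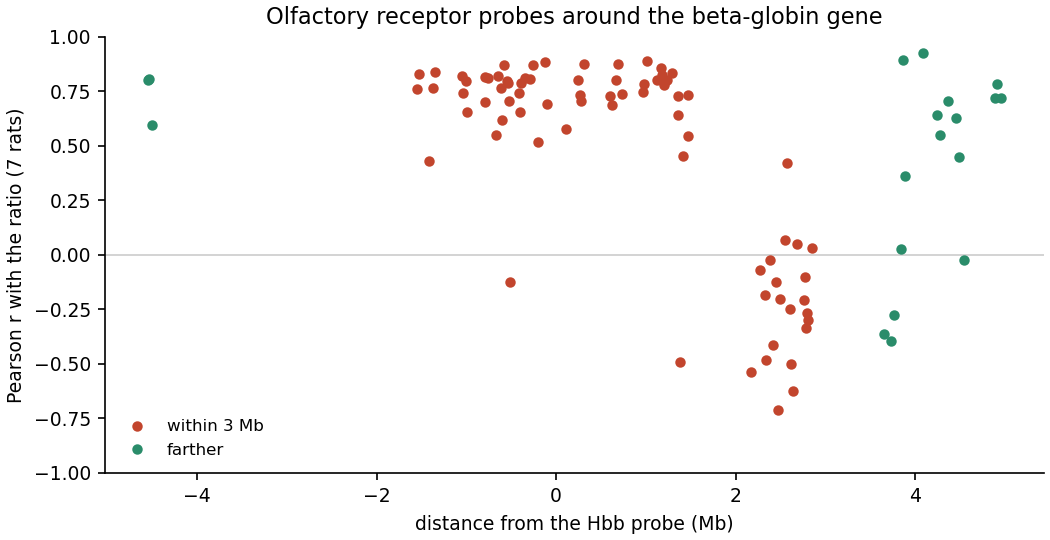
Pearson r of each expressed receptor probe's nostril differences with those of the log ratio (y axis, 7 rats) against its distance from the Hbb probe (x axis, Mb; red within 3 Mb, green farther). Points within 1.5 Mb lie mostly above 0.5, and those between 1.5 and 3 Mb on the right lie mostly under 0.

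Trace amine-associated receptors detect volatile amines. Of 14 Taar probes 8 were expressed, and 7 of these had an r over 0.5 with the ratio. The median signal of the 8 gave r = 0.68 (exact permutation p = 0.0938, adjusted p = 0.117) and rho = 0.79 (exact p = 0.048, adjusted p = 0.08). Without female 4 and male 6, r was 0.76. With Nqo1 alone r was 0.81 (exact p = 0.0282, adjusted p = 0.0732 over 13 correlations) and rho 0.89 (exact p = 0.0123, adjusted p = 0.032). Omp, the olfactory marker protein of mature neurons of all zones, gave r = -0.48 with the ratio (exact p = 0.288) and rho = -0.50 (exact p = 0.267). Nrp2, a semaphorin receptor of ventral axons, was above background on 2 arrays and its relation was not computed.

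The other zone genes were described by list. None of 5 dorsal and none of 10 ventral probes passed 1% between nostrils, sexes or rats. The shares over all tested probes were 0.0%, 0.0435% and 2.79%, so counts of 0 in such short lists say little. All 3 Robo2 probes had an unadjusted p under 0.05 between nostrils, as had 5.89% of all tested probes, and their A minus B values were -0.26, -0.19 and -0.20 (limma adjusted p = 0.781 each). The dorsal guidance genes Sema3f, a repellent ligand, and Robo2, a Slit receptor, gave r with the ratio between -0.01 and 0.40 over the nostril differences. Among 10 expressed probes of the nuclear factors Nfia, Nfib and Nfix, 9 had a negative r, and Nfib reached -0.90. Their median was -0.59, against -0.15 over the expressed probes with a value on every array.

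In the families of the members, 3 of 8 expressed probes had a positive r with the ratio over the nostril differences, with a median of -0.37. The related reductase Nqo2 gave 0.60. Among the adhesion molecules Ncam1 gave -0.80 and L1cam -0.61. The 3 Chl1 probes gave -0.27, -0.47 and 0.81, and the 2 Nrcam probes 0.13 and -0.77, so probes of 1 gene differed in sign. Of 8 tested probes (Nqo2, Ncam1, L1cam, Chl1 and Nrcam), 0 passed 1% in any comparison. Over all tested probes the shares were 0.0% between nostrils, 0.0435% between sexes and 2.79% among rats, so this count says little. Nqo1 is also a textbook target of the oxidant sensor Nfe2l2 (Nrf2). Of 24 tested probes of that pathway, 1 passed 1% among rats, a probe of thioredoxin reductase Txnrd1 (adjusted p = 0.0024), against 2.79% of all probes. By rat its level lay between 3.16 (female 8) and 4.13 (male 2). For the other Txnrd1 probes limma gave adjusted p of 0.328 to 0.772. The median r of the pathway with the ratio was 0.03, with 12 of 23 expressed probes positive. Nfe2l2 itself had a female minus male difference of 0.44 (adjusted p = 0.0978).

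Markers of neurons and of other cells were set against the ratio over the same nostril differences. The background was the 26633 of 26687 expressed probes that had a value on every array and were not members. Of these 63.7% had a negative r, with a median of -0.15 and a lower quartile of -0.40. The counts of these short lists are to be read against that. All 11 mature neuron probes and all 4 immature neuron probes had a negative r, with medians of -0.39 and -0.60. Of 4 ensheathing glia probes 3 were negative, with a median of -0.62 and an array mean of the list between 4.03 and 5.63. All 4 bone probes were negative (median -0.35, array mean 4.15 to 6.35). Sustentacular (2 of 4 positive) and respiratory (2 of 4 positive) probes were divided. Blood markers ranged widely, from 3.30 to 7.94, with a median r of 0.16. The basal keratin Krt14 and the glial marker S100b were above background on 0 arrays. The part of these cells in the ratio was not tested.

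Across the 15 arrays, which share rats and slides, probes were ranked by Pearson r among the 11999 that were detected on all 15 arrays and carried a gene symbol. The 6 most like Nqo1 were all olfactory receptors, Olr189 (r = 0.93), Olr124 (0.92), Olr1519 (0.92), Olr462 (0.92), Olr865 (0.91) and Olr486 (0.90). The 6 most like mean Ncam2 were the phosphodiesterase Pde1a (0.87), Ncam1 (0.87), Spg20 (0.86), Fem1b (0.86), Daam1 (0.85) and Ly6h (0.85). Olfactory receptors were 734 of the 26687 expressed probes, and their number among the 11999 was not counted. With the log ratio itself the 5 highest were the sulfate transporter Slc26a1 (0.90), the microtubule protein Mapt (0.88), Olr189 (0.87), Olr46 (0.86) and Olr486 (0.85). The 5 lowest were Olr1690 (-0.83), the neurogenic factor Neurod3 (-0.81), Kctd14 (-0.81), the adrenergic receptor Adra1b (-0.81) and Ush3a (-0.79). Among 26633 expressed probes with a value on every array, Omacs ranked 168 with Nqo1 (r = 0.77).

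Among the 734 expressed receptor probes alone, the highest r with the log ratio over the arrays belonged to Olr189 (0.87), Olr46 (0.86), Olr59 (0.86) and Olr486 (0.85), the first 3 on chromosome 1 and the last on chromosome 3. The lowest belonged to Olr1690 (-0.83), Olr324 (-0.83), Olr718 (-0.78) and Olr619 (-0.75), on chromosomes 20, 1, 3 and 3. Olr189 spanned -0.47 to 1.41 and Olr1690 1.45 to 3.05 over the 15 arrays. Between nostrils, 192 of the 734 (26.2%) had an r over 0.5 with the ratio. By chromosome this held for 69 of 156 on chromosome 1, 41 of 197 on 3, 1 of 22 on 4, 1 of 15 on 5, 11 of 63 on 7, 37 of 80 on 8, 6 of 76 on 10, 1 of 24 on 11, 8 of 12 on 13, 8 of 28 on 15 and 8 of 39 on 20. The other chromosomes carried fewer than 10 expressed receptor probes each.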

How the data were processed

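Cy3-labelled RNA of each nostril was read on its own 1-colour Agilent array of 60-base probes. The authors extracted signals with Agilent Feature Extraction (version 9.5.1.1 per the file headers, annotation build rn3), and the deposited scanner files hold the processed intensity, with background subtracted and no scaling between arrays. A deposited table of ratio values, signals over the medians of array and probe (99.98% of 20527 probes within 2% of that calculation), served as an alternative. Here intensities were divided by the array median, raised to a floor of 0.1 and log2 transformed. A probe was expressed if well above background on at least 11 of 15 arrays and tested if on at least 7. Outlier spots were left out and spots of a probe averaged. Median signals were 57.4 to 83.0 units and 26233 to 28741 probes were detected per array; the number of arrays limits the precision.

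Tests were limma 3.58.1 (R 4.3.3) across 27574 probes with Benjamini-Hochberg adjustment at 1%, with rat as a block between nostrils, rat means between sexes and within-sex contrasts among rats, and exact permutation tests (Python 3.11.15, numpy 2.4.6) for single values. The scripts were tested on simulated data. Replicates are rats and nostrils of a rat. The pairing of nostrils is that of the animal; deviations of the nostrils of a rat from their sex mean correlated between -0.11 and 0.47. Members and lists were chosen with earlier results of these data known. Named genes were the members, the listed zone, family and Nrf2 pathway genes, the 6 probes with the highest r with each member, 5 highest and 5 lowest with the log ratio, and 4 receptor probes at each end. The 13 further correlations were added after seeing the data. Alternatives were other scalings, background correction, floors, filters, probes, blocks, left-out rats and the methods' t-test. Suppliers were not analysed here, since the labels do not give them.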

Additional observations from a re-analysis of the deposited data

How the results depend on the processing

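Between nostrils no probe was called under any alternative run, and the fit without the rat block (no replicate block) also gave 0 calls and changed no call of a member. Between sexes 12 probes were called, against 3 for probes detected on at least 11 arrays, 6 with the ratio table, 1031 with the 15 arrays taken as independent in place of rat means, 641 with those arrays and slide as a block, and 9 to 10 with a rat left out. Among rats 768 were called, against 1305 with 75th percentile scaling, 1449 with quantile normalization, 78 with normexp background correction, 356 with the ratio table, 1 with slide as a block and 186 to 898 with a rat left out. The cause of these shifts was not tested. No member crossed the 1% threshold under any of these, leaving aside the blocked sex values, which rest on 1 female array and are no test.

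The correlation of Nqo1 with mean Ncam2 between nostrils, -0.78, was -0.84 with 75th percentile scaling and with quantile normalization, -0.89 with the reference probe alone, 0.35 with normexp, and -0.90 to -0.56 with a rat left out. Normexp lowered the expressed probes of female 4B by a median of 1.24 on the log2 scale and those of the other arrays by 0.52 to 0.75; the part of this shift in the changed correlations was not tested. For the ratio with Omacs (0.85) r was 0.72 with the GPI isoform probe alone, 0.39 with normexp, 0.87 with normexp and without female 4, 0.72 without the 2 farthest rats and 0.78 to 0.96 with a rat left out. For the ratio with class I receptors (0.82) it was 0.71, 0.79, 0.74, 0.65 and 0.74 to 0.87 in the same order. In these settings the adjusted exact p of both relations was above 0.05; with a rat left out this held for 5 of 7 rats (4 to 8). The correlation of Nqo1 with Ncam2 over rats, 0.00, took values of -0.040 with 75th percentile scaling, -0.030 with quantile normalization, -0.076 with the GPI isoform probe, -0.67 without the 2 farthest rats and -0.33 to 0.53 with a rat left out. No correlation within a slide was computed, with at most 3 rats on each.

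The log ratio between nostrils was 0.0011 with normexp and without female 4 and -0.23 to 0.042 with a rat left out. Its difference between sexes was -0.31 to 0.071 with a rat left out. Its gap within rats was -0.089 with the reference probe alone and -0.30 to -0.11 with a rat left out. Among single probes, the female minus male difference turned to 0.53 for Nqo1 and -0.40 for the GPI isoform probe with both arrays in place of rat means and slide as a block (-0.0017 and 0.058 with arrays alone), and for these ran from -0.21 to 0.16 and from -0.11 to 0.16 with a rat left out. Between nostrils the GPI isoform probe gave 0.0041 with 75th percentile scaling and 0.033 with normexp, and Nqo1 0.026 with normexp. With a rat left out these ran from -0.048 to 0.066 and from -0.16 to 0.012, and the reference probe from -0.011 to 0.11. None of the single-probe values passed 1%, with the blocked sex values left out as no test.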
